A study of Mus musculus with 12 samples.

Results

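Insr, Irs1, Pik3r1, Akt1 and Akt2 encode the central relay by which a cell answers insulin. They were measured here by 5 probe sets, 1 for each gene, out of the 12422 probe sets on the array that are not controls. They are 5 of the 8251 genes that the annotation names by a single symbol. The members were taken as every probe set whose single gene symbol in the platform annotation is one of these 5 names. The study isolated fat tissue of male C57BL/6 mice, an inbred laboratory strain, 42 to 49 days old. No mouse carried a transgene or received a treatment that the labels name. Tissue of 10 mice was pooled by depot and digested with collagenase. The 12 arrays fell into 4 groups of 3: floating adipocytes of subcutaneous flank fat, floating adipocytes of intraabdominal (epididymal) fat, and the stromo-vascular fraction (SVF) of each of these depots. The SVF is the pelleted mixture of preadipocytes, fibroblasts, vessel cells and immune cells. It was plated and kept in serum-containing medium for 16 h before RNA was taken, whereas adipocyte RNA was taken after washing, so cell fraction and culture cannot be told apart. The labels do not say whether the replicates of a group came from separate pools, and the p-values measure only the spread between these samples, which may be technical.

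Insulin binds a receptor tyrosine kinase, which phosphorylates docking proteins of the insulin receptor substrate family. These recruit phosphoinositide 3-kinase through its regulatory subunit, and the lipid it makes brings the kinase Akt to the membrane, where it is switched on. In fat cells this relay moves the glucose transporter GLUT4 to the cell surface, restrains lipolysis and favours lipid storage. Akt2 is the isoform most closely tied to glucose uptake in adipocytes, and Akt1 is widely expressed and tied to growth and survival.

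The arrays had been scaled to one level, since the highest and lowest trimmed mean stood in a ratio of 1.00017. The median signal of an array ranged from 423 to 558. Adipoq, the adipocyte hormone adiponectin, read 140415 ± 20112 and 124289 ± 8010 in subcutaneous and intraabdominal adipocytes against 245 ± 46.3 and 141 ± 2.22 in the SVF of the same depots (SD, n = 3 each). Pdgfra, a receptor of fat cell precursors and fibroblasts, read 17521 ± 502 and 16558 ± 1053 in the SVF against 621 ± 423 and 201 ± 114 in adipocytes. By Adipoq and Pdgfra the fractions thus followed their labels, but not by the markers of every SVF cell type. Of 8 macrophage markers 3 were higher in adipocytes in each depot, and 4 were lower in subcutaneous and 5 in intraabdominal fat. Endothelial markers were higher in the adipocyte fraction for 6 of 6 tested genes in each depot, with a summed signal of 10464 to 16199 on the 6 adipocyte arrays against 1127 to 3538 on the SVF arrays. The ratio of 3' to 5' actin signal, a measure of RNA quality, was 1.71 to 3.10 on adipocyte arrays and 1.11 to 1.24 on SVF arrays, without overlap (higher where RNA is less intact).

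The 250 bases before the outermost annotated start of Akt2, Akt1 and Pik3r1 are shown because these are the members whose signal differed between the cell fractions, the Akt genes in opposite directions. The sequences are RefSeq's, build GRCm38.p6, 5′ to 3′ on the strand of the gene: Akt2 at chr7:27591302-27591551 on the plus strand, Akt1 at chr12:112674885-112675134 and Pik3r1 at chr13:101768218-101768467, both on the minus strand. Capitals mark matches to known promoter motifs, each searched on both strands. The GC box, bound by Sp1 and its relatives, was spelled GGGCGG. The CAAT box, which binds the nuclear factor NF-Y, was spelled CCAAT. The forkhead site, the kind of element that FOXO factors bind, was spelled GTAAACA.
Akt2: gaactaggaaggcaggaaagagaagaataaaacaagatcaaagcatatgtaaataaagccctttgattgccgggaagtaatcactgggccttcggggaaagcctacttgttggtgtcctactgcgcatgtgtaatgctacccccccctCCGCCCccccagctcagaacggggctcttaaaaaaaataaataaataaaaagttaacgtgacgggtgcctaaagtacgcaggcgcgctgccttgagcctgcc
Akt1: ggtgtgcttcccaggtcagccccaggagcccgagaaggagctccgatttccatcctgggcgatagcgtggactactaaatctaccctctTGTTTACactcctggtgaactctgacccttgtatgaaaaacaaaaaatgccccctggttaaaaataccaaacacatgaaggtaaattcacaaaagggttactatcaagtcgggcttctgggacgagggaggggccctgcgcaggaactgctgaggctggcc
Pik3r1: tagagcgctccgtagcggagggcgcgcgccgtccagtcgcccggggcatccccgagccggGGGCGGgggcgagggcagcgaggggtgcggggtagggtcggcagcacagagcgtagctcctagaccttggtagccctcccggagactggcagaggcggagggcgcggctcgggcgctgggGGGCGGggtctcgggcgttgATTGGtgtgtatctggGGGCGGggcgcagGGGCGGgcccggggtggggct
The Pik3r1 window held 4 GC boxes and 1 CAAT box, the Akt2 window 1 GC box, and the Akt1 window 1 forkhead site. None of these windows held a TATA box (letters TATAAA), an E-box (letters CACGTG) or the PPAR-type direct repeat known as DR1. Of all 32817 annotated start windows of the same length, 32.7% held the GC box, 33.8% the CAAT box, 3.16% the forkhead site, 12.4% the TATA box, 6.02% the E-box and 0.0335% the direct repeat. Guanine and cytosine made up 48.8% of the Akt2 window, 52.0% of the Akt1 window and 76.4% of the Pik3r1 window, against a median of 52.4% over all windows. No factor binding was measured, and a match is a description of letters only.

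The first question was whether the receptor and its main substrate could be followed at all. Insr (probe set 102146_at; chromosome 8, 3150922 to 3279649), the insulin receptor, gave a weak and scattered signal. It read 91.4, 323 and 109 in subcutaneous adipocytes and 122, 38.1 and 120 in intraabdominal adipocytes. In the SVF it read 44.4, 249 and 388 for the subcutaneous and 205, 154 and 61.4 for the intraabdominal depot. Every pair of groups overlapped, and the SD within a group was 51.3% to 76.1% of its mean.

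Irs1 (98824_at; chromosome 1, 82233105 to 82291439), the substrate that docks phosphoinositide 3-kinase to the receptor, was dimmer still. Its signals were 38.4, 222 and 58.7 in subcutaneous adipocytes, 29.8, 36.2 and 127 in intraabdominal adipocytes, 70.1, 15.8 and 20.7 in subcutaneous SVF and 8.51, 40.7 and 58.4 in intraabdominal SVF. On 6 of 12 arrays it lay under 40.2, the 10th percentile of all values, which was also the pseudocount added before taking logarithms. All 4 groups overlapped. Both genes fell among the dimmest 30% of probe sets (percentile 25.0 for Insr and 8.51 for Irs1) and were not tested in the fit behind the other results. In a fit without that filter, neither differed in any of the 5 contrasts: the smallest adjusted p was 0.592 for Insr and 0.212 for Irs1 (limma, Benjamini-Hochberg over 12422 probe sets). The 95% intervals were wide. For adipocytes minus SVF in subcutaneous fat the log2 difference was -0.19 (-1.47 to 1.09) for Insr and 0.81 (-0.23 to 1.85) for Irs1, so that differences of up to 2.77-fold in Insr and 3.61-fold in Irs1 lay within them. In this fit 5.31% of all probe sets were called between the depots in adipocytes, 8.83% in SVF, 38.4% and 36.7% between the fractions of subcutaneous and intraabdominal fat, and 5.46% in the interaction of depot and fraction.

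**Figure D1:**
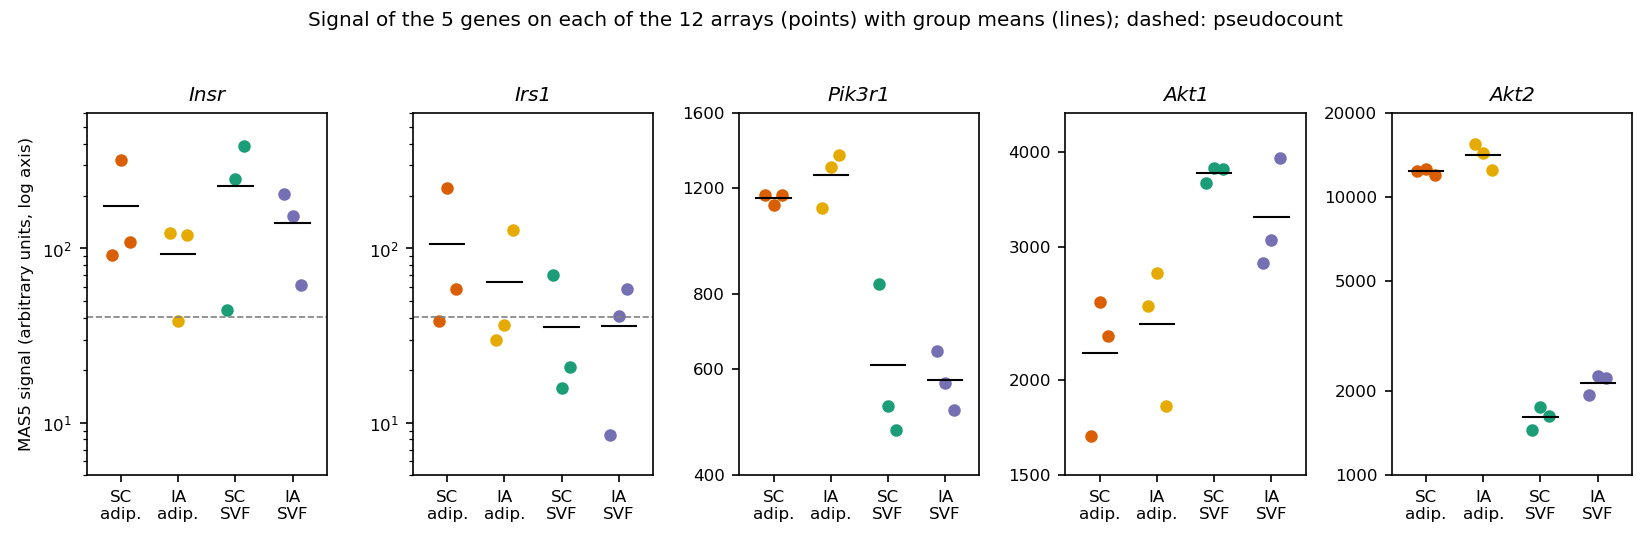
MAS5 signal of each gene on a log axis (arbitrary units; the range differs between panels) on the 3 arrays of each group: subcutaneous (SC) and intraabdominal (IA) adipocytes and stromo-vascular fraction (SVF); lines are group means, and the dashed line in the Insr and Irs1 panels is the pseudocount of 40.2. Akt2 and Pik3r1 lay higher and Akt1 lower on all 6 adipocyte arrays than on all 6 SVF arrays, while Insr and Irs1 scattered over all groups.

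The remaining 3 members were bright enough to test. Each differed between adipocytes and SVF in both depots, 2 higher and 1 lower in adipocytes, in comparisons in which 52.8% (subcutaneous; 23.5% higher and 29.4% lower) and 51.3% (intraabdominal; 22.4% higher and 29% lower) of all 8695 tested probe sets were called at an adjusted p under 0.05. The groups did not overlap for any of the 3, which held for 60% and 59.9% of all probe sets. Because the RNA came from bulk samples, fewer cells of a type and less RNA per cell cannot be told apart.

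Akt2 (160558_at; chromosome 7, 27591552 to 27640826) showed the largest difference of the members. It read 12411, 12634 and 11945 in subcutaneous adipocytes and 15461, 14406 and 12477 in intraabdominal adipocytes. In the SVF it read 1446, 1757 and 1629 in the subcutaneous and 1941, 2273 and 2224 in the intraabdominal depot. The lowest adipocyte array was thus well above the highest SVF array. On the scale of signal plus pseudocount, Akt2 was 7.51-fold higher in adipocytes of subcutaneous fat (95% interval 6.25 to 9.04; log2 difference 2.91 ± 0.124 SE; limma adjusted p = 1.01e-10) and 6.46-fold higher in intraabdominal fat (5.38 to 7.77; 2.69 ± 0.124; adjusted p = 1.92e-10). In size these differences exceeded those of 95.1% and 93.8% of all tested probe sets. The same shares were 56.0% and 37.6% for Akt1 and 61.8% and 68.6% for Pik3r1, whose differences are given below. Both Akt2 calls held in all 23 alternative settings, with log2 differences of 2.82 to 3.12 and 2.62 to 2.85.

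Akt1 (100970_at; chromosome 12, 112653821 to 112674884), the close relative of Akt2, ran the other way. It read 1689, 2533 and 2288 in subcutaneous adipocytes against 3638, 3811 and 3800 in subcutaneous SVF, and 2507, 2771 and 1848 in intraabdominal adipocytes against 2859, 3062 and 3930 in intraabdominal SVF. The groups did not overlap in either depot, though in intraabdominal fat the highest adipocyte and the lowest SVF array were close. Akt1 was 1.74-fold lower in subcutaneous adipocytes (log2 difference -0.80 ± 0.185 SE; limma adjusted p = 0.00218) and 1.38-fold lower in intraabdominal adipocytes (-0.47 ± 0.185; adjusted p = 0.0479). The intraabdominal call was a narrow one. It was lost when any of 8 of the 12 arrays was left out: subcutaneous adipocyte array 3, intraabdominal adipocyte array 1 or 3, subcutaneous SVF array 1, 2 or 3, or intraabdominal SVF array 2 or 3. Without intraabdominal adipocyte array 3 the log2 difference was -0.30 (adjusted p = 0.204), and the adjusted p spanned 0.0282 to 0.675 across the alternatives. With arrays centred on their medians it was -0.31 (adjusted p = 0.255), where the median over all probe sets moved from -0.11 to 0.05.

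Pik3r1 (96592_at; chromosome 13, 101680761 to 101768217) encodes the p85 alpha regulatory subunit through which phosphoinositide 3-kinase binds the receptor substrates. Its signals were 1169, 1125 and 1167 in subcutaneous and 1113, 1303 and 1364 in intraabdominal adipocytes. The SVF arrays read 831, 521 and 475 in the subcutaneous and 644, 570 and 513 in the intraabdominal depot. All adipocyte arrays lay above all SVF arrays, and array 1 of the subcutaneous SVF was nearest to them. Pik3r1 was 1.89-fold higher in subcutaneous adipocytes (1.37 to 2.60; log2 difference 0.92 ± 0.214 SE; limma adjusted p = 0.00225) and 2.11-fold higher in intraabdominal adipocytes (1.54 to 2.90; 1.08 ± 0.214; adjusted p = 0.000646). The same gene has a further annotated start downstream of the one shown above, and which transcripts the probe set reads was not analysed here.

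**Figure D2:**
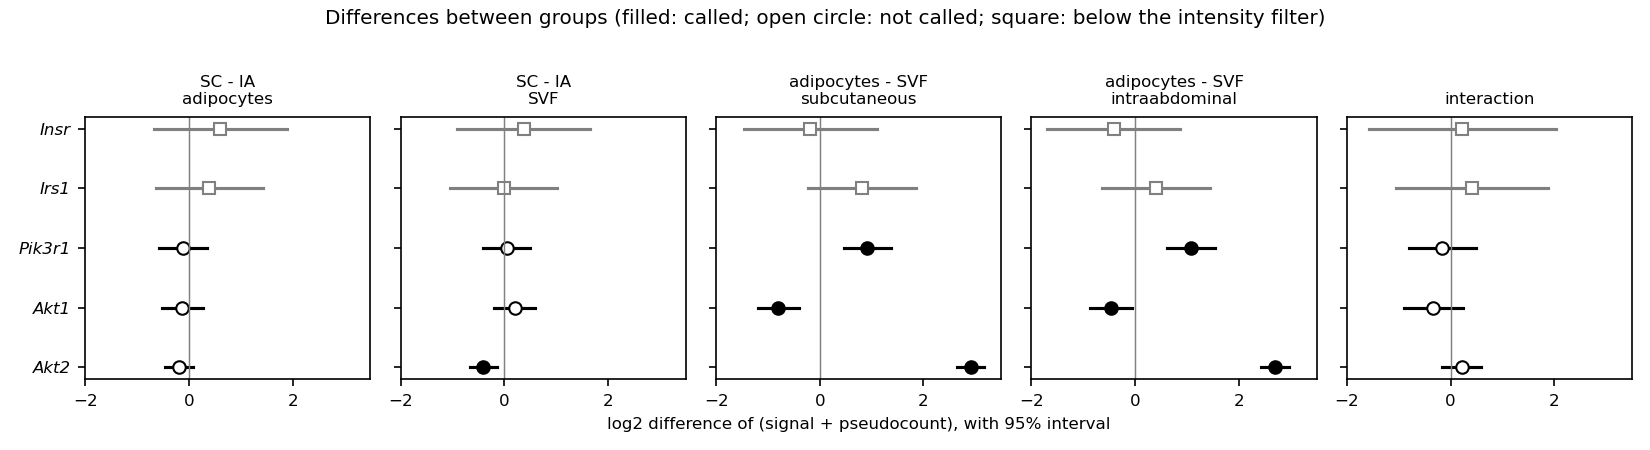
Log2 difference of each gene (points) with its 95% interval (lines) in the 5 contrasts; filled circles are called at an adjusted p under 0.05, open circles are not, and grey squares are the probe sets of Insr and Irs1 from the fit without the intensity filter. Akt2 between the fractions lies farthest from 0 (2.91 and 2.69), and the 1 depot call, Akt2 in the SVF, lies at -0.41.

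The Akt genes were next compared within each array, where a scaling error cancels. From SVF to adipocytes the change of Akt1 minus that of Akt2 was -3.43 on the log2 scale, -3.71 in subcutaneous and -3.16 in intraabdominal fat. The change of Pik3r1 minus that of Akt1 was 1.63, and that of Pik3r1 minus that of Akt2 was -1.80. These values restate the separations given above for each gene and are a description, with no test of their own.

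The actin 3' to 5' ratio moved with the fraction. With it as a covariate the Akt2 differences were 3.12 ± 0.421 in subcutaneous and 2.83 ± 0.289 in intraabdominal fat (limma adjusted p = 0.000408 and 1.58e-05). Those of Pik3r1 were 0.65 ± 0.739 and 0.90 ± 0.508 (adjusted p = 0.641 and 0.225) and those of Akt1 -0.54 ± 0.645 and -0.30 ± 0.443 (adjusted p = 0.658 and 0.675). The directions were kept, and the errors of all these differences, those of Akt2 included, more than doubled. Cell type markers moved with the fraction as well. Of 8 adipocyte markers all were higher in adipocytes in both depots (summed signal 405707 to 588614 against 16146 to 29507). Of 8 preadipocyte and fibroblast markers 7 were lower and 1 was higher in both depots (45872 to 79585 against 229040 to 364517). In intraabdominal fat 5 of 5 smooth muscle and 3 of 3 mesothelial markers were lower in adipocytes. In subcutaneous fat 2 of 5 smooth muscle markers were lower and 1 of 3 mesothelial markers was higher. The part of these, and of the endothelial cells named above, in the Akt1, Akt2 and Pik3r1 differences was not tested.

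**Figure D3:**
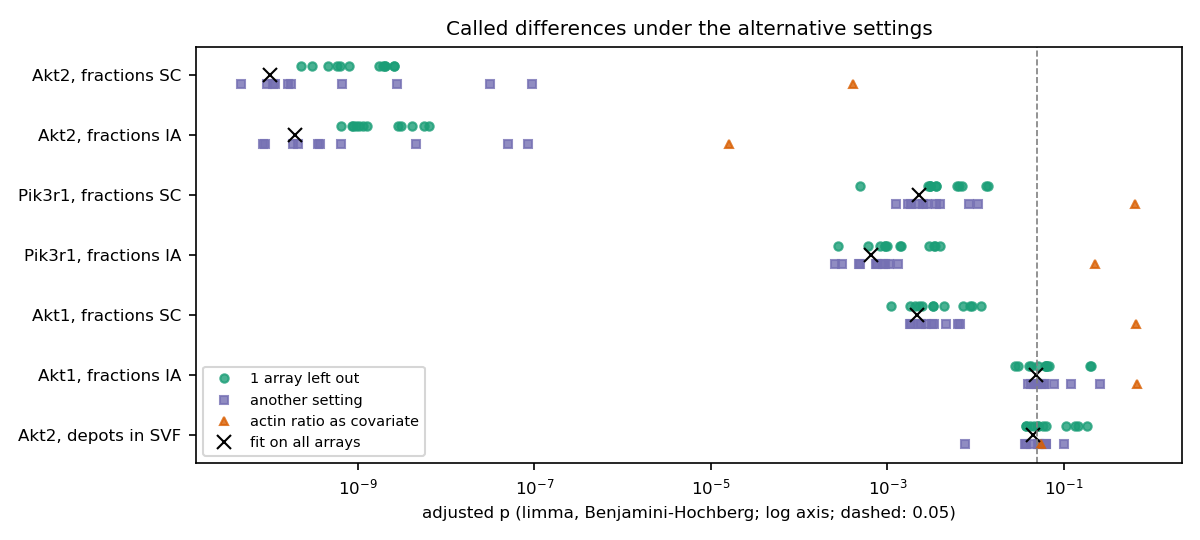
Adjusted p (log axis) of the 7 called differences of Akt2, Pik3r1 and Akt1 in the fit on all arrays (crosses), with 1 array left out (circles), in other settings (squares) and with the actin ratio as covariate (triangles); SC and IA are the depots and the dashed line is 0.05. Both Akt2 fraction differences stay left of the line throughout. Pik3r1 in both depots and Akt1 in subcutaneous fat cross it with the actin covariate alone, and Akt1 in intraabdominal fat and the Akt2 depot difference in the SVF lie on both sides of it in several settings.

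The next question was whether the depots differed. In adipocytes none of the 3 tested members was called (limma, adjusted p under 0.05), against 8.13% of all probe sets. With values as deposited, no member reached an unadjusted p under 0.05 either. The log2 differences, subcutaneous minus intraabdominal, were -0.19 for Akt2 (95% interval -0.46 to 0.08), -0.13 for Akt1 (-0.53 to 0.27) and -0.12 for Pik3r1 (-0.58 to 0.34), with adjusted p of 0.367, 0.708 and 0.772. All 3 members overlapped between the depots, whereas 24.3% of all probe sets did not. The actin ratio, 2.35 to 3.10 in subcutaneous and 1.71 to 2.24 in intraabdominal adipocytes, differed between them, and with it as covariate no member was called either. With values as deposited, the intervals leave room for differences of up to about 1.37-fold in Akt2 and 1.49-fold in Pik3r1. The Akt2 value depended on the scaling. With arrays centred on their medians it was -0.41 ± 0.150 SE (limma adjusted p = 0.0963) and still not called. There the median over all probe sets moved from 0.07 to -0.15.

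In plated SVF cells 1 of the 3 tested members was called, and it was lower in the subcutaneous depot, against 12.9% of all probe sets called and 6.45% called lower. Akt2 averaged 1611 ± 156 in subcutaneous and 2146 ± 179 in intraabdominal SVF (SD, n = 3 each), 1.33-fold lower in the former (log2 difference -0.41 ± 0.124 SE, 95% interval -0.67 to -0.14; limma adjusted p = 0.0446). All 3 subcutaneous arrays lay below all 3 intraabdominal ones; groups that did not overlap were found for 37.3% of all probe sets. The call was marginal: leaving out any of 8 arrays ended it, namely subcutaneous SVF array 1, 2 or 3, intraabdominal SVF array 2 or 3, subcutaneous adipocyte array 2, or intraabdominal adipocyte array 1 or 2. With 1 array left out the log2 difference lay between -0.48 and -0.33, and the adjusted p over all alternatives between 0.00747 and 0.183. Smooth muscle markers (5 of 5 tested), mesothelial markers (3 of 3) and 4 of 8 macrophage markers were lower in the same subcutaneous arrays, 1 macrophage and 4 of 6 endothelial markers were higher. Adipocyte markers, with 3 of 8 higher and none lower in the subcutaneous arrays (summed signal 23523 to 29507 against 16146 to 19237), ran opposite to Akt2, and preadipocyte and fibroblast markers were higher for 3 and lower for 1 of 8. The part of these cell types in the Akt2 difference was not tested. The smooth muscle sum was 31672 to 33727 in subcutaneous and 122378 to 147871 in intraabdominal SVF. Akt1 (0.20, 95% interval -0.19 to 0.60; adjusted p = 0.565) and Pik3r1 (0.04, -0.42 to 0.50; adjusted p = 0.946) were not called there.

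Whether the depot difference itself differed between the fractions was tested as an interaction. None of the 3 members was called (limma), against 8.43% of all probe sets, and no unadjusted p was under 0.05. The interaction was 0.22 for Akt2 (-0.16 to 0.59; adjusted p = 0.535), -0.33 for Akt1 (-0.89 to 0.23; adjusted p = 0.526) and -0.16 for Pik3r1 (-0.81 to 0.49; adjusted p = 0.820). The Akt2 depot difference, called in the SVF only, was therefore not shown to differ from that in adipocytes. In order of signal Akt2 was highest in intraabdominal adipocytes, next in subcutaneous adipocytes, then in intraabdominal and last in subcutaneous SVF. The first pair of neighbours overlapped, the second was clearly apart, and the last was apart by the marginal difference above. For Akt1 the order was subcutaneous SVF, intraabdominal SVF, intraabdominal adipocytes and subcutaneous adipocytes, and for Pik3r1 intraabdominal adipocytes, subcutaneous adipocytes, subcutaneous SVF and intraabdominal SVF. In both genes the neighbours within a fraction overlapped.

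Genes with a profile like that of a member were sought by the root mean square difference between the 4 group means of log2 signal, each profile centred on its own mean, over 6433 other genes. For Akt2, whose group means spanned 3.10, the nearest were Impdh1 (0.0790), S100a1 (0.0804) and Irf8 (0.108). Impdh1 makes guanine nucleotide precursors, S100a1 is a calcium-binding protein and Irf8 is a transcription factor of immune cells. For Pik3r1, with a span of 1.08, they were the proteasome subunit Psmb7 (0.0287), the kinase Uhmk1 (0.0356) and Dnajc11 (0.0364). Akt1, Insr and Irs1 spanned under 1, and no such genes were sought for them. The means of Impdh1 in subcutaneous SVF (157) and of Dnajc11 in subcutaneous and intraabdominal SVF (153 and 157) lay under 173, the level of the intensity filter. Both genes passed that filter through the other groups, so their distances are uncertain. All these distances describe the 4 means only.

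The members were then set beside other genes of the insulin pathway, a list of 64 textbook members by role. Of these 40 had a probe set with a single symbol here and 38 were bright enough to test, the adaptor Crk and the catalytic subunit Pik3cd being too dim. Between adipocytes and SVF 17 were higher, 7 lower and 14 not called in subcutaneous fat, where 24.5% of 6436 tested genes were higher and 30.7% lower. In intraabdominal fat 15 were higher, 12 lower and 11 not called, against 23.8% and 30.2%. The median log2 difference of the list was 0.25 and 0.30, against -0.04 and -0.11 for all genes tested. With the actin ratio as covariate 2 were higher and 1 lower in subcutaneous and 4 higher and 5 lower in intraabdominal fat, where of all genes tested 6.2% were higher and 6.65% lower, and 11.6% and 15%, respectively.

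Among receptor substrates and adaptors, adipocytes of subcutaneous fat had 2 of 7 called higher and 2 called lower, and those of intraabdominal fat 2 higher and 3 lower. Those higher were substrates of the same family as Irs1. Irs2 read 5153 ± 391 and 3209 ± 673 in subcutaneous and intraabdominal adipocytes against 1071 ± 299 and 557 ± 52.2 in SVF. It was 5.39-fold higher in intraabdominal fat (limma adjusted p = 1.33e-07) and 4.78-fold higher in subcutaneous fat (adjusted p = 2.91e-07). Irs3, a substrate of rodent fat cells named here after its values were seen, read 965 ± 194 and 870 ± 86.5 against 142 ± 59.6 and 118 ± 143. Its SVF means lay under 173, the level of the intensity filter, which it passed through the adipocyte arrays, and no size of difference is given. The adaptor Shc1, which links receptors to the Ras pathway, was lower in adipocytes, 2.76-fold in subcutaneous and 2.25-fold in intraabdominal fat (adjusted p = 4.23e-07 and 4.38e-06). Named after their values were seen, the docking protein Gab1 was lower in both depots (log2 differences -0.69 and -0.82, limma adjusted p = 0.0207 and 0.00796) and Sos1, an activator of Ras, in intraabdominal fat (-1.30, adjusted p = 0.000212).

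Of 8 genes of glucose transport and storage, 6 were called higher in subcutaneous adipocytes than in SVF and 2 were called lower, and in intraabdominal fat these counts were 5 and 2. Slc2a4, the insulin-responsive transporter GLUT4, read 6813 ± 798 and 5053 ± 440 in adipocytes against 198 ± 177 and 160 ± 77.6 in SVF. It was called higher in adipocytes of both depots (limma, adjusted p under 0.05). Its intraabdominal SVF mean lay under 173, the level of the intensity filter, and its subcutaneous SVF mean near it. The probe set thus passed the filter through the adipocyte arrays, so the size is uncertain and no fold is given. The Slc2a4 call held in all 23 alternatives in each depot, which bears on the direction and not on the size. Srebf1, a regulator of lipid synthesis that insulin induces, was 7.76-fold higher in intraabdominal adipocytes (adjusted p = 4.08e-08), and the hexokinase Hk2 2.95-fold higher in subcutaneous ones (adjusted p = 1.20e-07). Rhoq, the small GTPase TC10, was 1.96-fold lower in subcutaneous adipocytes (adjusted p = 0.00126). In the other depot each of these was called in the same direction: Srebf1 5.76-fold higher, Hk2 2.14-fold higher and Rhoq 1.63-fold lower (limma adjusted p = 2.19e-07, 4.49e-06 and 0.0112). The values of those other-depot calls under the alternatives were not followed. With the actin ratio as covariate the subcutaneous calls of Hk2, Shc1 and Rhoq were lost (limma adjusted p = 0.130, 0.0898 and 0.573). The 2 higher and 1 lower subcutaneous calls that held with this covariate were Slc2a4, Socs3 and Map2k1. All other subcutaneous calls of the list between the fractions were thus lost, those of Irs2, Srebf1 and Trib3 included.

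Of 8 brakes on the pathway, 2 were higher and 1 lower in subcutaneous adipocytes than in SVF, and 4 higher and 4 lower in intraabdominal ones. Trib3, a pseudokinase that binds Akt, was 5.33-fold lower in intraabdominal adipocytes (limma adjusted p = 2.40e-06), and Socs3, an inhibitor of cytokine and insulin receptors, 3.78-fold higher in subcutaneous ones (adjusted p = 8.03e-08). Both were called in the same direction in the other depot, Trib3 2.32-fold lower and Socs3 1.80-fold higher (adjusted p = 0.00142 and 0.000283). Of 7 Akt substrates 3 were higher and 1 lower in subcutaneous, and 1 higher and 2 lower in intraabdominal adipocytes. In the Ras-MAP kinase branch the kinase Map2k1 was 5.84-fold and 7.36-fold lower in adipocytes (adjusted p = 1.40e-07 and 3.66e-08). Of 3 genes of the mTOR branch 2 and 1 were higher, and of 3 genes that make or use the lipid signal 1 was higher in each depot, the catalytic subunit Pik3ca, named after its values were seen, of which another probe set pointed the other way.

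**Figure D4:**
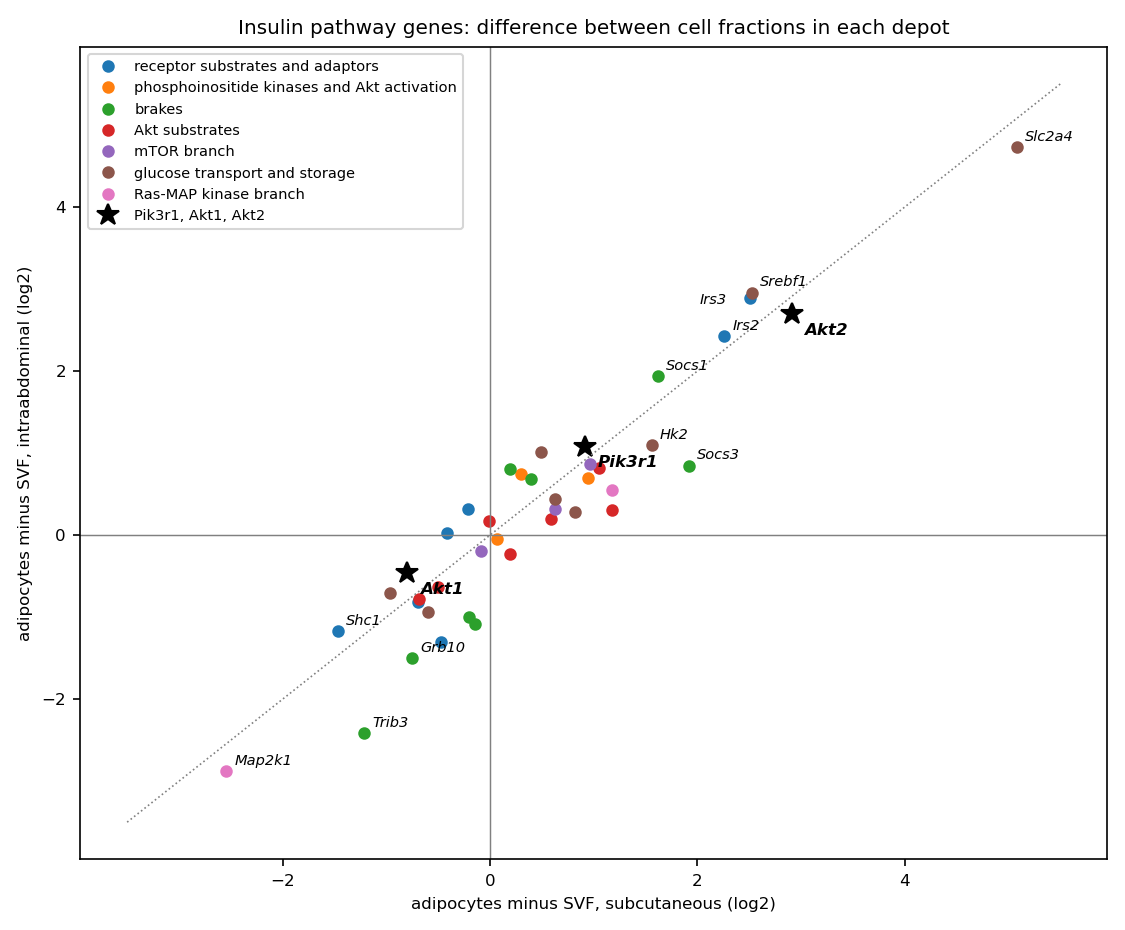
Log2 difference between adipocytes and SVF in subcutaneous (x axis) and intraabdominal fat (y axis) for 38 other genes of the insulin pathway, coloured by role, and for Pik3r1, Akt1 and Akt2 (stars); the dotted line marks equal differences. Akt2 lies with Irs2 and Srebf1 between 2 and 3 on both axes, and Akt1 lies on the opposite side of 0. The places of Irs3 and Slc2a4 are uncertain, since their SVF signals were near or under the level of the intensity filter.

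Between the depots, in adipocytes, 1 of 38 was higher and none lower, against 3.67% and 4.63% of all genes: Socs3 read 17509 ± 1575 in subcutaneous against 3606 ± 686 in intraabdominal adipocytes (4.86-fold, limma adjusted p = 4.56e-07). With the actin ratio, which separated these groups, as covariate the log2 difference of Socs3 was 2.65 against 2.28. Of 8 preadipocyte and fibroblast markers 2 were higher in subcutaneous adipocytes and none lower (summed signal 54461 to 79585 against 45872 to 52401), and their part in the Socs3 difference was not tested. In SVF 3 were higher and 4 lower in the subcutaneous depot, against 6.91% and 6.96%. Those higher were Socs3 (2.31-fold, adjusted p = 7.44e-05), its relative Socs1 and Irs2 (1.82-fold, adjusted p = 0.0106). Socs1 read 335 ± 110 in subcutaneous and 112 ± 38.0 in intraabdominal SVF. The latter mean lay under 173, the level of the intensity filter, which Socs1 passed through the other groups, and no size of difference is given. The Irs2 call was lost without subcutaneous SVF array 1 (log2 difference 0.68 against 0.86, adjusted p = 0.0607; over all alternatives 0.000898 to 0.0607). Those lower included the receptor phosphatase Ptprf (2.11-fold, adjusted p = 0.000891), the glycogen synthase Gys1 (1.60-fold, adjusted p = 0.00220) and the lipid phosphatase Inppl1, known as SHIP2 (1.83-fold, adjusted p = 0.00522). The fourth was the adaptor Grb10, named after its values were seen (log2 difference -1.38, adjusted p = 0.0252). Thus 5 of the 7 genes called in SVF belonged to the 8 brakes, 2 of them higher and 3 lower. Cell type markers differed between the same SVF groups in both directions, as given above for Akt2. The part of these cell types in the differences of the 7 genes was not tested. In the interaction 2 of 38 were higher and none lower, against 4.2% and 4.91% of all genes tested.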

How the data were processed

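Messenger RNA of 12 samples was measured on Affymetrix expression arrays. Each deposited value is a linear intensity of 1 probe set on 1 array, which the authors computed with MAS5 per the submitters' processing notes. Its version is not given in the sources used here, and detection calls were not used. MAS5 scales each array to one mean, which hides any change shared by most genes. The 66 control probe sets were left out, leaving 12422 (10833 with 1 symbol, 396 with several, 1193 with none here). Values were used as deposited. Tests used log2 of signal plus 40.2 (the 10th percentile), which understates changes of dim genes. The dimmest 30% were not tested, leaving 8695. For pathway genes the brightest probe set stood for the gene. One model of 4 group means was fitted with limma 3.58.1 (lmFit, eBayes with trend, R 4.3.3), with Benjamini-Hochberg adjustment over all tested probe sets and calls at 0.05, and checked on simulated data. The number of arrays limits the precision. The members and lists were chosen with earlier results of these data known. Pathway genes were named as the up to 3 smallest adjusted p per contrast and direction without overlap between groups; other names are marked. Replicate numbers did not pair the samples: same-numbered deviations correlated over 0.1 in 1 of 18 pairs.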

Additional observations from a re-analysis of the deposited data

Results flagged for a closer look

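No difference between the depot effects of the 2 fractions was called for the members themselves. Among the other pathway genes 2 of 38 were called in that interaction (limma, both higher). Of all genes tested 4.2% were called higher and 4.91% lower there, so the count does not set the list apart. For Socs3 the depot difference was larger in adipocytes than in SVF by 1.07 on the log2 scale (2.28 against 1.21, adjusted p = 0.00580), and the call was lost with arrays centred on their medians (0.91, adjusted p = 0.0525; 0.00315 to 0.0525 over all alternatives). For Inppl1 the depot difference in adipocytes was 0.06 and that in SVF -0.87, an interaction of 0.93 (adjusted p = 0.0398) that was lost in 12 of 22 alternatives, 8 of which left out 1 array (subcutaneous adipocyte 2, intraabdominal adipocyte 1, 2 or 3, subcutaneous SVF 2 or 3, or intraabdominal SVF 1 or 2), with values of 0.77 to 1.10 and adjusted p from 0.0190 to 0.222 over all alternatives.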

How the results depend on the processing

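Of 550 values of the members' 25 differences under alternatives, 517 kept their side of the threshold, 33 lost the call and none of the called ones changed sign. Most of the 517 belong to differences that were never called and so could not lose a call. The losses were 15 of 23 alternatives for Akt2 between the depots in SVF and 15 of 23 for Akt1 between the intraabdominal fractions. Pik3r1 in each depot and Akt1 in subcutaneous fat lost 1 of 23 each. The count of members called between the depots in SVF was 1, and 0 with a pseudocount 4 times as large, without the intensity filter, with arrays centred on their medians, without the trend, with the actin ratio, with only the groups compared and with the replicate block; it was 0 to 1 when arrays were left out. With the replicate block the adjusted p (limma) was 0.0625 for Akt2 there and 0.0551 for Akt1 between the intraabdominal fractions, and no other member call changed; in 6 of 18 comparisons of same-numbered arrays between groups did an array correlate best with its own number. With the actin ratio as covariate 1 of 3 members, Akt2, was called between fractions in each depot, and all calls fell to 97 (from 707) and 1058 (from 4595), 2173 (from 4462) and 403 (from 733) for adipocyte depots, subcutaneous and intraabdominal fractions and the interaction. The adipocyte depot count was 299 with only the groups compared and 365 to 949 with arrays left out (372 without intraabdominal array 1, 365 without array 2), and the SVF depot count 1952 with array weights against 1125. Centring arrays moved the median adipocyte depot difference from 0.07 to -0.15 and the share of higher calls from 48.8% to 18.0%; for the interaction that share moved from 46.2% to 32.9%. Of 480 values of the named pathway genes 17 lost the call, and the cause was not tested. Signals of Insr and Irs1 were too close to the lowest values to resolve.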
